A study of Mus musculus with 19 samples.

Results

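Open reading frames (ORFs) that begin inside an annotated coding sequence and run past its stop codon were examined in mouse lung organoids. They are the ORFs that the deposited lists type as overlapping downstream ORFs in at least 1 library and never as annotated, upstream, overlapping upstream, internal or downstream ORFs in any library. The rule found 552 such ORFs among 21663 unique ORFs, or 2.55%, in 501 genes. Another 56 ORFs carried the type but were left out because some row gave them one of the other types. The type held in the lengths: the 552 ORFs overlapped their coding sequence by 4 to 707 nucleotides and ran 4 to 7735 nucleotides beyond it.

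The study set normal alveolar type 2 (AT2) organoids beside lung adenocarcinoma (LUAD) organoids, all of strain C57BL/6. AT2 cells are the surfactant-secreting cells of the alveolus, and organoids are small self-organising cultures in gel. The organoids were held on matrigel-washed plates for 48 hours and exposed for 5 min to 100 µM cycloheximide, which stalls elongating ribosomes. Ribosome footprints were taken by RiboLace, which pulls down translating ribosomes with a puromycin analogue. ORF lists came from 2 AT2 libraries and from 3 LUAD libraries titled KP, transcript counts of footprints from 3 AT2 and 4 LUAD libraries, and transcript counts of RNA from 3 AT2 and 4 LUAD libraries. The labels give no driver allele, animal age or line for the LUAD organoids, and they do not tie an ORF library to a count library. The design text counts 2 AT2 cultures and 3 tumour organoids, so some of the count libraries may share a culture, in which case the p-values measure technical spread in part.

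A ribosome that translates such an ORF on its listed transcript must start within that transcript's coding sequence, in another frame. Footprints on the same codons can also come from another transcript of the gene, where they lie in the annotated frame. Many genes make transcripts whose reading frame is shifted by altered splicing and ends at a premature stop codon. These are marked for nonsense-mediated decay (NMD), the surveillance pathway in which UPF1 and the SMG proteins destroy messages that terminate too early. Downstream of the premature stop, an NMD transcript can still carry the normal protein's codons, in a frame that its own annotated coding sequence does not use.

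Of the 552 ORFs, 327 (59.2%) lay on transcripts typed as nonsense-mediated decay and 225 (40.8%) on protein-coding transcripts with no such transcript listed. The 327 include 2 ORFs listed on both types. Of the 552, 56 (10.1%) were also listed on retained-intron or long non-coding RNA transcripts, under a type that the rule does not bar. The 2 kinds differed in size and in place. On NMD transcripts the ORFs had a median of 296 codons, overlapped the coding sequence by a median of 61 nucleotides and ran a median of 809 nucleotides beyond it. On protein-coding transcripts the median was 93 codons, with 142 nucleotides of overlap and 112 nucleotides beyond. The overlap was a median of 6.75% of the ORF on NMD transcripts and 58.6% on protein-coding ones. The part beyond the stop was longer than the overlap in 318 of 327 ORFs on NMD transcripts and in 96 of 225 on protein-coding transcripts. The coding sequence that they overlapped was also shorter on NMD transcripts, with a median of 333 nucleotides against 1011 nucleotides.

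**Figure D1:**
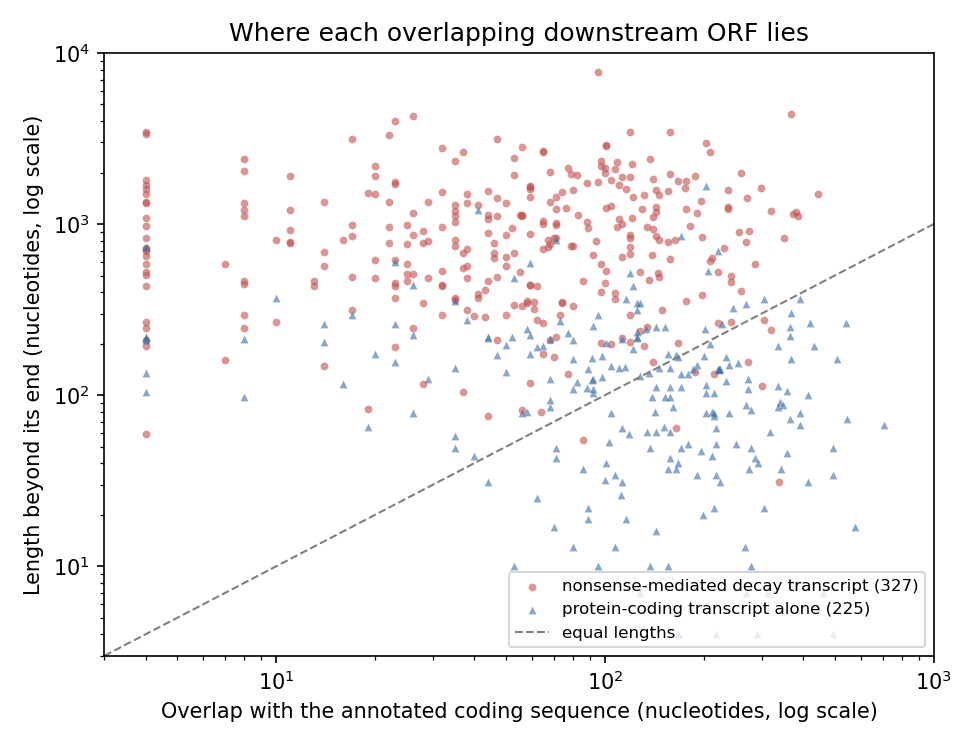
Overlap with the annotated coding sequence (x axis, nucleotides, log scale) against the length beyond its end (y axis, nucleotides, log scale) for each of the 552 ORFs, coloured by transcript type, with a dashed line where both lengths are equal. ORFs on nonsense-mediated decay transcripts lie mostly above the line (318 of 327), and those on protein-coding transcripts on either side of it (96 of 225 above).

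The smallest overlap, 4 nucleotides, occurred in 30 ORFs, 24 of them on NMD transcripts. Among the 447 ORFs whose coding sequence followed an annotated 5′ UTR, none kept the frame of that coding sequence. The type excludes it, since an ORF in that frame would end at the same stop. Of the 447, 333 were shifted by 1 nucleotide and 114 by 2 nucleotides. For the other 105 the coding sequence began at the first base of the transcript, so the frame could not be read from the lengths. The 552 ORFs ended at 534 genomic stops, and 45 genes held more than 1 of them. Cpsf6, which encodes a subunit of the complex that cleaves messages before polyadenylation and is named here after its values were seen, held 5, all of them seen in the second AT2 library alone with 6 to 8 in-frame P-sites. ORFs of 1 gene can overlap and then share P-sites, so they are not independent of each other.

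The peptide of each ORF was compared with the peptides of the annotated ORFs listed for the same gene on any transcript. A run of at least 20 identical residues was shared by 351 of the 552 ORFs (63.6%), and in 129 of these the whole peptide lay inside an annotated one. In 126 the whole peptide was the end of an annotated protein. No such run was found for 156 ORFs, whose longest shared run was 2 to 5 residues, and 45 ORFs lay in genes with no annotated ORF listed. The same genomic stop as a listed annotated ORF was used by 307 of the 552.

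Sharing followed the transcript type. On NMD transcripts 294 of 327 ORFs (89.9%) shared a run and 252 used the annotated stop. On protein-coding transcripts 57 of 225 (25.3%) shared a run and 55 used the annotated stop. Most of the ORFs on NMD transcripts thus hold residues that a listed annotated ORF of the gene also encodes, and the lists do not say which transcript a footprint came from. The ORFs with no shared run were short, with a median of 91.5 codons, a median overlap of 143 nucleotides and a median of 106.5 nucleotides beyond the stop.

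Downstream ORFs begin after the stop, and internal ORFs lie within the coding sequence in another frame. A run was shared by 56.1% of the 1045 downstream ORFs and by 1.86% of the 1075 internal ORFs, and NMD transcripts carried 61.5% and 8.19% of them. Over the 5 libraries the share with a run was 6.06 percentage points higher than in downstream ORFs (exact paired permutation test, two-sided, p = 0.125, adjusted p = 0.229 over 8 tests). It was higher in 4 of the 5, the exception being LUAD 3 at 67.5% against 69.1%. Against internal ORFs it was 64.6 points higher (p = 0.063, adjusted p = 0.167, same exact test) and higher in 5 of 5. Internal ORFs are by their type out of the frame of the coding sequence that holds them, so they can seldom share a run. The types thus largely set that direction, and the exact test adds no support to it. With 5 paired libraries 0.063 is the smallest p that test can give, so it cannot pass 0.05.

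Members with the most reads were listed on NMD transcripts, which does not show that the reads came from those transcripts. The 10 ORFs with the most in-frame P-sites, a P-site being the base position of the ribosome's peptidyl site, were in Ctnnb1, Itgb1, Nedd4, Puf60, Mdh2, Cct7, Cct8, Ankrd11, Gsto1 and Tpm1. All 10 shared a run with an annotated ORF of the gene. Numbers below are in-frame P-sites per library, and an ORF absent from a library's list has no value there, which is not a count of 0.

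The ORF in Ctnnb1, which encodes beta-catenin, the cadherin partner and Wnt effector, had 675 codons at chr9:120950703-120959517 (mm10). It was listed in LUAD 1 with 1877, LUAD 2 with 651 and LUAD 3 with 703 in-frame P-sites, and in no AT2 library. Its RPKM, here in-frame P-sites scaled to ORF length and to the library's P-sites, was 78.4, 117.6 and 112.9. The annotated 781-codon ORF of the gene had 81.5, 129.9 and 118.4 in the same 3 libraries, so the pair lay close together in each. No annotated Ctnnb1 ORF was listed in either AT2 library, although the gene had 1867 to 2115 footprint CPM (counts scaled to a library total) in the 3 AT2 footprint libraries. A second Ctnnb1 ORF of 216 codons, listed in LUAD 1 with 487 and LUAD 2 with 191 in-frame P-sites, was the end of the annotated protein.

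Itgb1 encodes the integrin beta 1 chain, which anchors cells to matrix. Its 698-codon ORF was listed in AT2 2 with 227, LUAD 1 with 1205, LUAD 2 with 225 and LUAD 3 with 281 in-frame P-sites. On this scale it stood highest in AT2 2, at 76.4 RPKM against 48.7, 39.3 and 43.6 in the LUAD libraries. The annotated ORF moved with it, at 76.2, 50.7, 39.1 and 44.0 RPKM.

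Nedd4, a ubiquitin ligase, held a 522-codon ORF with 1118, 286 and 329 in-frame P-sites in LUAD 1, 2 and 3. Puf60, a splicing factor, held one of 499 codons with 1156 in LUAD 1 and 131 in LUAD 2. Cct7 and Cct8 encode subunits of the TRiC chaperonin, which folds actin and tubulin. The Cct7 ORF of 444 codons had 58 in-frame P-sites in AT2 2 and 566, 133 and 153 in LUAD 1, 2 and 3. The Cct8 ORF of 472 codons had 70 in AT2 2 and 762 in LUAD 1. Each of these stood highest in LUAD 1, the library with the most P-sites.

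Mdh2 encodes mitochondrial malate dehydrogenase of the citric acid cycle. Its 231-codon ORF at chr5:135785931-135790208 overlapped a 156-nucleotide coding sequence by 4 nucleotides, and its peptide lay whole inside the annotated one. It had 66 in-frame P-sites in AT2 2 and 618, 122 and 144 in LUAD 1, 2 and 3, and its RPKM was nearly level at 67.1, 75.4, 64.4 and 67.6. Gsto1, a glutathione transferase, held an 84-codon ORF with 461, 154 and 157 in LUAD 1, 2 and 3. Tpm1, a tropomyosin that coats actin filaments, held an ORF of 182 codons with 89 in AT2 2, 517 in LUAD 1 and 110 in LUAD 2. Its RPKM of 114.8, 80.1 and 73.7 was below that of the annotated ORF, at 181.1, 102.1 and 101.3.

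Ankrd11, a chromatin regulator, held the longest of the 552, with 2609 codons of which 2568 formed one run shared with the annotated protein. It was listed in LUAD 1 alone, with 795 in-frame P-sites at 8.59 RPKM. Zfp142, a zinc finger gene, followed with 1586 codons and 19 in-frame P-sites in AT2 1 and 11 in LUAD 3, and Phrf1, a ubiquitin ligase gene, with 1443 codons and 40 in LUAD 3. The shortest were in Nptn and Micos10, at 20 codons each, and in App at 24 codons. Nptn encodes a cell adhesion protein and Micos10 a subunit of the complex that shapes mitochondrial cristae, and App encodes the amyloid precursor protein. Up to 100 codons were found in 157 of the 552 and over 500 codons in 84, and 20 codons is the shortest ORF in the lists.

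**Figure D2:**
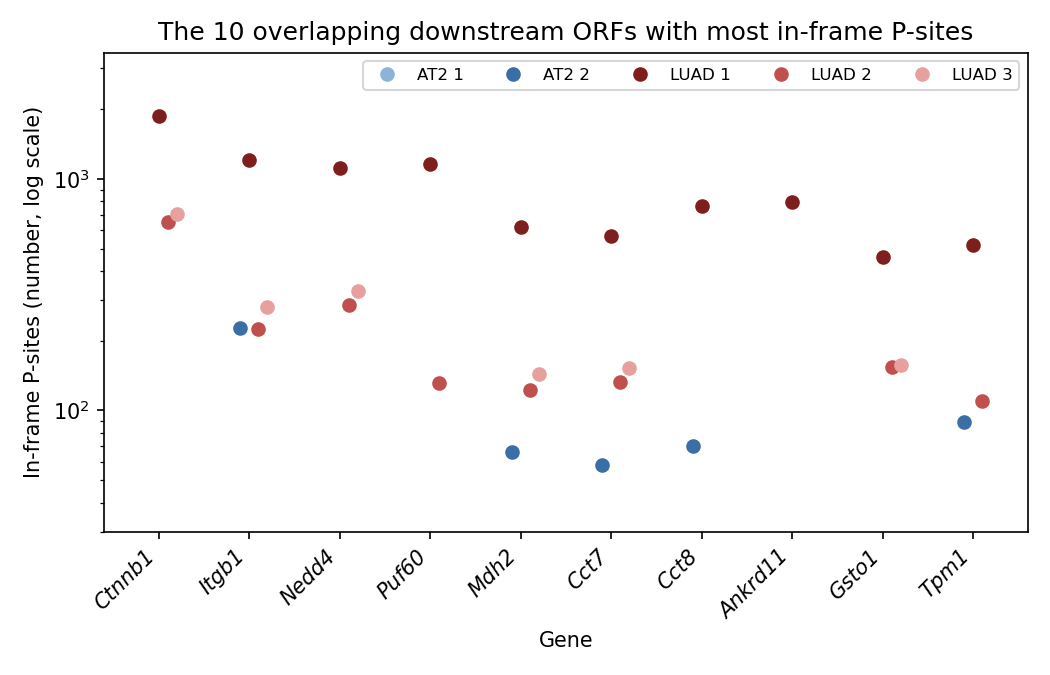
In-frame P-sites (y axis, number, log scale) in each library that listed the ORF, for the 10 overlapping downstream ORFs with the highest sums, 1 point per library and no point where the ORF was not listed. LUAD 1 gives the highest point for each of the 10, and none of them has a point from AT2 1.

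The ORFs with the most P-sites on protein-coding transcripts are named after their values were seen, since no rule picked them. Calr, the calcium-binding chaperone calreticulin, held a 68-codon ORF with 362 in-frame P-sites of 1004 in LUAD 1, an in-frame share of 36.1%. Ptms, which encodes parathymosin, held one of 103 codons with 214 of 559, a share of 38.3%. Nap1l1, a histone chaperone gene, held one of 44 codons with 173 of 317, a share of 54.6%. Each was listed in LUAD 1 alone and shared no run with the annotated protein.

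P-sites in frame made up 54.6% of all P-sites on the 79 ORFs of AT2 1, 50.8% in AT2 2, 49.3% in LUAD 1, 49.5% in LUAD 2 and 46.8% in LUAD 3. The lists hold only ORFs whose P-sites passed the authors' test for frame, so these shares are those of selected ORFs. Downstream ORFs had 59.1, 54.5, 51.0, 50.4 and 47.7% in the same order, higher in 5 of 5 libraries by a mean of 2.33 points (exact paired permutation test, two-sided, p = 0.063, adjusted p = 0.167). Annotated ORFs had 46.5, 47.5, 47.8, 46.8 and 44.1%, lower in 5 of 5 by a mean of 3.65 points (exact p = 0.063, adjusted p = 0.167). Internal ORFs had 50.8, 57.6, 52.4, 57.5 and 58.7%, higher in 4 of 5 libraries by a mean of 5.21 points (exact p = 0.1875, adjusted p = 0.229). None of these differences passed the test.

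**Figure D3:**
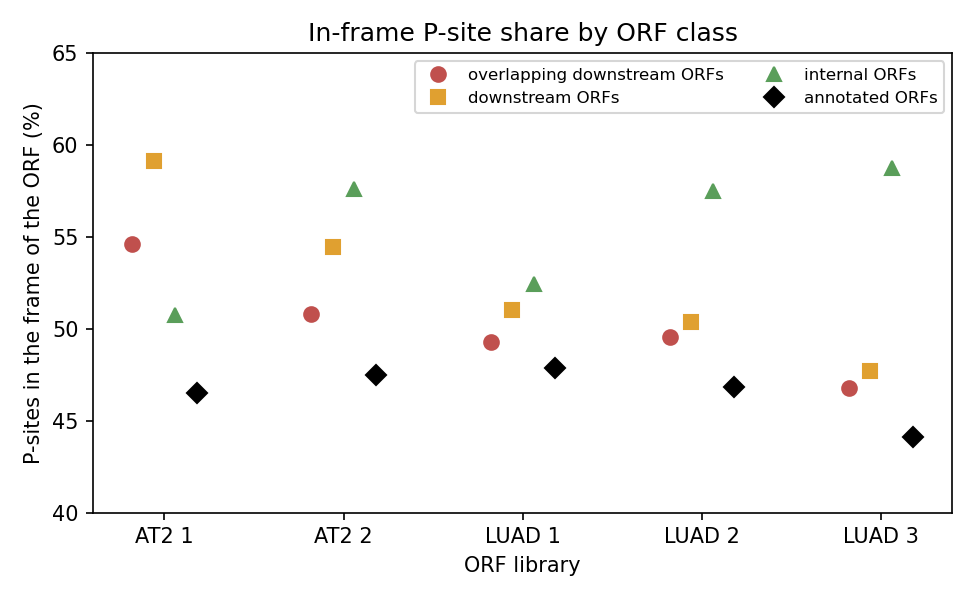
Percentage of P-sites in the frame of the ORF (y axis, from 40%) in each library for 4 ORF classes, 1 point per class and library. The overlapping downstream ORFs lie between the annotated and the downstream ORFs in each of the 5 libraries.

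The remaining P-sites were split by frame over the whole ORF, in 2 sets that are unlike, since the first leaves out ORFs that share a run. On protein-coding transcripts with no shared run, the frame of the overlapped coding sequence held 20.2, 29.4, 32.8, 23.2 and 32.8% of P-sites in AT2 1, AT2 2, LUAD 1, LUAD 2 and LUAD 3. The third frame held 20.6, 17.3, 17.8, 10.8 and 18.6%. The coding frame thus exceeded the third frame in 4 of 5 libraries. On NMD transcripts both other frames were near level, from 24.6 to 27.1% for the coding frame and from 23.9 to 26.8% for the third. The overlap was a median of 6.75% of the ORF on NMD transcripts and 58.6% on all protein-coding ones. The coding frame thus applies to only a small part of most ORFs on NMD transcripts, and the 2 sets cannot be compared directly. Only ORFs whose frame could be read enter these values, such as 153 of 198 ORFs on NMD transcripts in LUAD 1. On protein-coding transcripts with no shared run they were 15 of 19 in LUAD 2.

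Density was set against an annotated ORF of the same gene in the same library, as a log2 ratio of RPKM. The partner was the annotated ORF with the most in-frame P-sites there, which need not be the one that shares the run. For ORFs that shared a run the median was 0.16 in AT2 1 (17 ORFs with an annotated partner listed), 0.02 in AT2 2 (68), 0.08 in LUAD 1 (200), 0.04 in LUAD 2 (113) and 0.03 in LUAD 3 (67). In the median, shared ORFs were thus about as densely covered as that annotated ORF of the gene. Without a shared run the medians were -0.85, -0.81, -0.17, -0.16 and -0.72, over 2, 8, 38, 3 and 12 ORFs. Over all ORFs with a partner the mean of the library medians differed by -0.05 between tissues, LUAD minus AT2 (exact permutation test, two-sided, p = 0.6).

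The RNA libraries gave the abundance of the transcripts themselves, in deposited TPM (transcript abundance scaled to length and library total). NMD transcripts that carry one of these ORFs were at 0 TPM in 47.1, 47.1 and 54.4% of cases in the 3 AT2 libraries and in 37.9, 37.3, 33.9 and 32.3% in the 4 LUAD libraries. AT2 RNA libraries held 4122819 to 10233520 estimated counts and LUAD ones 27181932 to 33203742, and the part of depth in that difference was not tested. The median was at most 0.47 TPM, against 11.3 to 14.9 TPM for the highest transcript of the gene with a listed annotated ORF. They were lower than that transcript in 84.9 to 87.3% of cases. Transcripts of the ORFs on protein-coding transcripts had medians of 4.99 to 10.9 TPM, against 25.1 to 33.5 TPM for the highest annotated transcript of their genes. They were at 0 TPM in 17.2 to 27.7% of cases and lower than that transcript in 47.4 to 50.5%. Taken case by case, their median was 96.2 to 100% of that transcript, against 0 to 2.77% for the NMD transcripts. The highest annotated transcript can be the ORF's own, as for Cct8 in AT2 RNA library 1, where both values were 83.9 TPM.

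For named ORFs the transcripts ranged from absent to abundant. The transcripts of the Ctnnb1 and Puf60 ORFs had 0 TPM in all 7 RNA libraries, where the annotated transcript had 154.5 to 434.9 TPM in Ctnnb1 and 105.9 to 179.8 TPM in Puf60. For Itgb1 the ORF's transcript had 3.87, 0.20, 6.31 and 12.9 TPM in the LUAD libraries and at most 0.34 TPM in the AT2 libraries, beside 62.0 to 240.5 TPM for the annotated one. For Cct7 it had 90.9, 98.6 and 77.2 TPM in AT2 and 108.8, 139.9, 136.2 and 156.0 TPM in LUAD, in the range of its annotated transcript at 75.7 to 127.8 TPM or above it. For Mdh2 it had 93.8, 21.8 and 69.5 TPM in AT2 and 60.9, 64.9, 45.04 and 5.49 TPM in LUAD, below the annotated transcript's 221.8 to 428.6 TPM in each library. Estimated counts split reads among similar transcripts of a gene, so TPM of single transcripts carries that uncertainty.

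Across libraries, AT2 1 listed 79 of the 552 ORFs, AT2 2 listed 107, LUAD 1 listed 291, LUAD 2 listed 146 and LUAD 3 listed 117. The numbers follow the length of the lists, which held 2597, 4426, 13380, 8122 and 5372 unique ORFs. As shares of the lists they were 3.04% (95% exact Clopper-Pearson interval 2.42 to 3.78), 2.42% (1.99 to 2.91), 2.17% (1.93 to 2.44), 1.80% (1.52 to 2.11) and 2.18% (1.80 to 2.60), intervals that cover counting error only. LUAD libraries listed 91.7 more on average, 184.7 ± 93.2 (SD, n = 3) against 93.0 ± 19.8 (SD, n = 2), and the share was 0.68 points lower in LUAD, at 2.05% ± 0.22 against 2.73% ± 0.44. Neither difference could pass an exact permutation test, since 2 against 3 libraries allow no two-sided p below 0.2, the value of both (adjusted p = 0.229). Relative to depth, the libraries listed 29.3, 75.4, 24.6, 53.4 and 38.0 for each 1000000 P-sites, a total recovered from the deposited RPKM, and the groups overlapped.

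The kinds were not evenly spread over libraries. On NMD transcripts lay 44.3% of the ORFs in AT2 1, 66.4% in AT2 2, 68.0% in LUAD 1, 76.0% in LUAD 2 and 63.2% in LUAD 3. A run was shared by 36.7, 72.9, 73.2, 82.9 and 67.5%. AT2 1 stood apart from the other 4 libraries in both shares, and in its median length of 108 codons against 185 to 261.5. In-frame P-sites per ORF had a median of 9, 11, 48, 15 and 14, highest in LUAD 1, whose recovered total of 11821132 P-sites compares with 1419489 to 3075612 in the others.

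**Figure D4:**
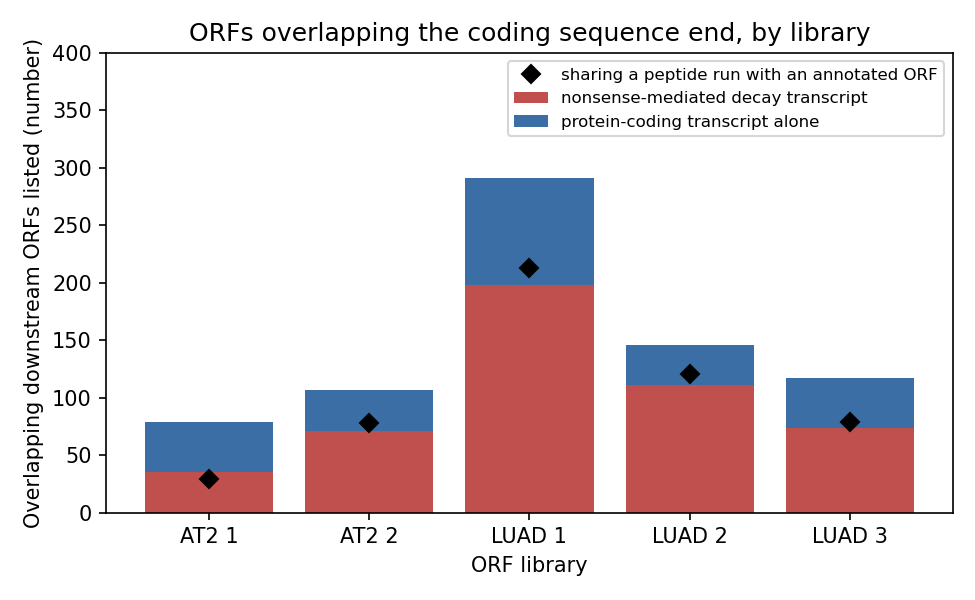
Overlapping downstream ORFs listed in each library (y axis, number), as bars stacked by transcript type, with a diamond for the number that shares a peptide run with an annotated ORF. LUAD 1 has the tallest bar, at 291, and AT2 1 is the library where ORFs on protein-coding transcripts outnumber those on nonsense-mediated decay transcripts, 44 against 35.

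Most of the ORFs were seen once. Of the 552, 412 were listed in 1 library, 99 in 2, 34 in 3, 7 in 4 and none in all 5. Recurrence in at least 2 libraries was 35.5% on NMD transcripts (116 of 327) and 10.7% on protein-coding transcripts (24 of 225). Downstream ORFs recurred in 24.7%, internal ORFs in 6.42% and annotated ORFs in 47.7% of cases, against 25.4% of the 552. The AT2 lists alone held 105, the LUAD lists alone 367 and both held 80. Of the LUAD-only ORFs 176 came from LUAD 1 alone. NMD transcripts carried 41.0% of the AT2-only ORFs, 60.5% of the LUAD-only ORFs and 77.5% of those in both tissues. Both AT2 libraries had 1 of the ORFs in common, in Traf7, while AT2 2 shared 44 with LUAD 1 and AT2 1 shared 19 with it. LUAD 1 and LUAD 2 shared 63, LUAD 1 and LUAD 3 shared 33, and LUAD 2 and LUAD 3 shared 26. With so little overlap between the AT2 libraries, absence from a list cannot be read as absence of translation.

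The 7 ORFs listed in 4 libraries were in Mdh2, Itgb1, Calu, Cct7, Naa25, Traf7 and Spint2, all on NMD transcripts. Calu encodes calumenin, a calcium-binding protein of the endoplasmic reticulum, and its 241-codon ORF had 39, 362, 116 and 97 in-frame P-sites in AT2 2, LUAD 1, LUAD 2 and LUAD 3. Naa25, the auxiliary subunit of an N-terminal acetyltransferase, held one of 454 codons with 19, 90, 19 and 14 in AT2 1, LUAD 1, LUAD 2 and LUAD 3. Traf7, a ubiquitin ligase gene, held one of 635 codons with 35, 27, 126 and 35 in AT2 1, AT2 2, LUAD 1 and LUAD 2. Spint2, a serine protease inhibitor of epithelia, held one of 150 codons with 43, 208, 90 and 81 in AT2 2, LUAD 1, LUAD 2 and LUAD 3.

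Listed in 3 libraries, besides those in Ctnnb1, Nedd4, Gsto1 and Tpm1, were ORFs in Tnfaip2, Sorbs2, Snd1, Rrp1, Xpnpep1, Psmd13, Rbm5, Gart, Ipo9, Ttll12, Ube3b, Tsta3, Tubgcp3, Fam135a, Ndufa10, Myof, Aplp2, Brap, Tor2a, Zdhhc3, Vrk3, Slc15a4, Lpp, Ergic2 and Dhx9, a second one in Traf7, and a pair each in Abcc1 and Bmp1 that overlap. Of the 41 listed in at least 3 libraries, 39 were on NMD transcripts and the same number shared a run.

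The other 2 were short ORFs out of frame with the protein, in Aplp2 and Dhx9. Aplp2 encodes a relative of the amyloid precursor protein, and its 81-codon ORF at chr9:31150675-31150920 overlapped the coding sequence by 50 nucleotides and ran 196 beyond. It had 11 in-frame P-sites of 21 in AT2 1, 61 of 100 in LUAD 1 and 14 of 39 in LUAD 3, at 16.8, 21.2 and 18.7 RPKM. Dhx9 encodes an RNA helicase, and its 122-codon ORF at chr1:153455900-153456268 overlapped by 200 nucleotides and ran 169 beyond. It had 7 of 9 P-sites in frame in AT2 1, 6 of 9 in LUAD 2 and 6 of 9 in LUAD 3. The Aplp2 ORF was thus the better covered of the pair.

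The 80 ORFs in both tissues also took in, at 2 libraries each, ORFs on NMD transcripts in genes that include Cct8, Prdx6, Actr3, Dab2ip, Apobec3, Lrp5, Pitpna, Eif2a, Smpd4, Ehmt1, Actl6a, Ermp1, Ppp6c, Snx27, Fxr1, Cul7, Atp9b, Slc25a12, Slc35b1, Kif20b, Farsa, Tmem147, Cdk5rap3, Ramp2, Hltf, Zfp142, Blmh, Mob4, Tlk2, Trmt1l and Tor3a. On protein-coding transcripts they were in Taf15, with 2 ORFs between the same genomic ends, and in Hnrnpm, Cldn3, Agap1, Glipr1, Tagln2, Caprin1, Aprt, Spr, Rps6ka4, Pelp1, Foxp4, Zbtb7b, 1110008P14Rik and Tollip. Taf15 encodes an RNA-binding protein of the FET family, and its 268-codon ORF was read out of frame over 542 nucleotides of the coding sequence. It had 15 in-frame P-sites in AT2 2 and 131 in LUAD 1, at 13.1 and 13.8 RPKM. Cldn3, a tight junction claudin, held a 66-codon ORF with 16 in-frame P-sites in AT2 2 and 86 in LUAD 1. Of the 80, 65 shared a run with an annotated ORF.

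The 501 genes that hold one of these ORFs, called host genes here, were then followed in the footprint and RNA count tables. The value of a gene sums only the transcripts that the ORF lists pair with it, so its other transcripts are not counted. AT2 footprint libraries held 3030290 to 3834358 estimated counts and LUAD ones 4803129 to 14249573. A marker is called measured if the ORF lists pair it with a transcript and it passed the low-count filter. The other markers are therefore not shown to be absent. Of the AT2 markers 7 of 12 were measured, and 6 of them, among them Sftpb, Sftpd and Nkx2-1, were lower in LUAD in both assays. The other, Etv5, passed the test in neither, with a log2 change of 0.47 in footprints and -0.55 in RNA. Markers not measured include Sftpc and Lamp3. Both measured macrophage markers (of 8), Mrc1 and Cd14, were higher in LUAD, with summed footprints of 77.6 to 100.8 CPM against 8.68 to 8.89 CPM, and so was Bgn, the measured fibroblast marker of 7, at 41.5 to 103.5 CPM against 2.65 to 3.56 CPM. None of 3 endothelial markers was measured, and the part of other cells in the results below was not tested. In these bulk samples fewer cells of a type and less RNA per cell cannot be told apart.

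Libraries fell into 2 sets seen in the data that cross the tissues. One footprint set holds AT2 1, LUAD 1 and LUAD 2, and one RNA set holds AT2 1, AT2 2, LUAD 1 and LUAD 2. Within AT2 footprints, log2 values correlated at 0.91 between libraries 2 and 3 and at 0.76 and 0.73 between library 1 and these. No 2 libraries were as alike as sampling noise would make them, the closest being LUAD footprint libraries 3 and 4, whose chi-square over genes was 5.42 per degree of freedom. Values within each set are given beside the results.

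Host genes were called at shares near those of all genes. In footprints 92 of 488 tested host genes (18.9%) passed an adjusted p of 0.05 in edgeR's quasi-likelihood test, 31 higher and 61 lower in LUAD, beside 21.3% of all genes tested (9.47% higher and 11.8% lower). Their median log2 change was -0.06, against -0.02 over all genes. Within the sets 266 and 233 of them passed (53.8% and 47.5%), beside 51.5% and 41.7% of all genes. With scaling on all transcripts the split became 57 higher and 45 lower, and the median over all genes moved to 0.14. In RNA 195 of 490 (39.8%) passed, 103 higher and 92 lower, beside 37.0% of all genes (19.0% higher and 18.0% lower), with a median of 0.09 against 0.04. Within the sets 317 and 286 passed (64.7% and 57.9%), beside 58.5% and 53.7% of all genes. In RNA, scaling on all transcripts gave 144 higher and 70 lower with a median over all genes of 0.20. Leaving out LUAD footprint library 2, 3 or 4 left 54, 51 and 53 host genes called in footprints, and leaving out AT2 RNA library 1 or 2 left 121 and 110 called in RNA. Among hosts of AT2-only ORFs 17 of 84 were higher and 21 lower in RNA. Among hosts of LUAD-only ORFs 67 of 324 were higher and 55 lower in RNA. In footprints 5 of 82 hosts of AT2-only ORFs were higher and 11 lower. For hosts of LUAD-only ORFs the footprints went the other way from RNA, with 21 of 324 higher and 43 lower. The difference between these hosts was not tested.

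Host genes that rose most in footprints were Homer2, Cfb, Porcn, Tnfaip2 and Cdkn2a. Homer2, a scaffold gene, had 0, 0.41 and 0.76 CPM in AT2 libraries and 22.3, 21.8, 16.7 and 16.7 CPM in LUAD, a log2 change of 5.31 ± 0.64 (SE; edgeR adjusted p = 0.0013). Its groups did not overlap. In RNA it had 4 counts in AT2, all in library 1 (0.59 CPM), and 19.0, 18.3, 63.4 and 68.3 CPM in LUAD, a fitted log2 change of 7.42. That change was 5.98 in the library set with AT2 library 1, and 12.73 in the other set and 12.38 without AT2 library 1, where the remaining AT2 libraries had 0 counts and the fitted value is no bound. The same holds for its footprints in the set with AT2 library 1, at 9.95. Cfb encodes complement factor B, and its 2 ORFs lay on protein-coding transcripts. It had 8.0, 0.41 and 0 CPM in AT2 and 24.6, 36.0, 29.3 and 32.1 CPM in LUAD footprints (log2 change 3.86, edgeR adjusted p = 0.0346). The change was 1.98 in the set with AT2 library 1, 7.14 in the other set and 7.14 without AT2 library 1. The call was lost without any of 6 of the 7 libraries, the exception being AT2 library 1 (adjusted p of 0.0503 to 0.0915). In RNA, over the transcripts that the ORF lists pair with it, it had 0 counts in the 3 AT2 libraries and 11.3 to 24.4 CPM in LUAD. That makes LUAD at least 94.7-fold higher on these transcripts when AT2 is set to 3 counts summed over its libraries.

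Tnfaip2, a gene induced by tumour necrosis factor, held a 283-codon ORF on an NMD transcript with 420, 51 and 80 in-frame P-sites in LUAD 1, 2 and 3 and no listing in AT2. Its footprints were at 10.7, 29.8 and 63.5 CPM in AT2 and 311.8, 284.1, 490.0 and 492.6 CPM in LUAD, a log2 rise of 3.46 ± 0.55 (SE; edgeR adjusted p = 0.0043), with no overlap. Porcn, the acyltransferase that lipidates Wnt proteins, rose by 3.71 (edgeR adjusted p = 0.0312), and was at 0.0545 to 0.0947 without AT2 library 2 or any 1 LUAD library. Cdkn2a, which encodes the p16 and p19ARF tumour suppressors, had 66.7, 64.1 and 95.3 CPM in AT2 and 356.4, 336.6, 506.3 and 499.6 CPM in LUAD, a rise of 2.49 ± 0.26 (SE; edgeR adjusted p = 0.00075). Its ORF of 125 codons was listed in an AT2 library alone, although the gene was higher in LUAD. Overlapping frames of that locus encode both proteins, and the ORF's peptide lay whole inside an annotated one.

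Among the host genes that fell most in footprints were Aqp5, Atp11a, Ctsh and Tgm1. Aqp5, an alveolar water channel, held a 152-codon ORF listed in AT2 2 with 46 in-frame P-sites. Its footprints fell by 8.27 on the log2 scale and its RNA by 8.43, with 1508 to 2699 CPM in AT2 RNA and 3.18 to 9.47 CPM in LUAD RNA. Ctsh, a cathepsin that processes surfactant protein, fell by 3.97 in footprints and 3.72 in RNA, yet its 263-codon ORF was listed in a LUAD library alone with 155 in-frame P-sites. Tgm1, a transglutaminase, fell by 3.56 and Atp11a, a phospholipid flippase, by 5.01. In RNA Bmp1, the procollagen C-proteinase, fell by 4.05, and its ORFs were listed in AT2 and LUAD.

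Gls2, a mitochondrial glutaminase, and Fastk, a regulator of mitochondrial RNA, had 0 counts in all 3 AT2 RNA libraries and passed the test in RNA. These counts and the folds below cover only the transcripts that the ORF lists pair with each gene, so they do not show that its RNA was absent. Gls2 stood at 9.83, 15.2, 5.54 and 9.26 CPM in LUAD, at least 55.1-fold higher against 3 counts over the AT2 libraries, and Fastk at 1.03, 2.15, 0.91 and 2.15 CPM, at least 8.64-fold higher. The Fastk call (edgeR adjusted p = 0.0274) was lost with the replicate number as a block (adjusted p = 0.211) and within each library set (adjusted p of 0.0508 and 0.129). It was also lost without AT2 library 1 or 2 or LUAD library 2, 3 or 4. Its ORF was listed in AT2 alone, with 16 in-frame P-sites.

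Few of the 10 host genes with the most in-frame P-sites passed the test. In footprints Nedd4 rose by 0.72 (edgeR adjusted p = 0.0342) and Tpm1 fell by 0.58 (adjusted p = 0.0439). Neither call held without AT2 library 2 or 3 or any 1 LUAD library (adjusted p of 0.0547 to 0.0830 for Nedd4 and 0.0979 to 0.139 for Tpm1), and that for Tpm1 also ended with scaling on all transcripts (adjusted p = 0.117). In RNA Cct8 rose by 0.90 (edgeR adjusted p = 0.0148; 0.064 without AT2 library 1 or 2) and Itgb1 fell by 0.92 (adjusted p = 0.0095). With the RNA replicate number as a block, Nedd4 (0.0257), Tpm1 (0.0382), Cct7 (0.0372) and Ankrd11 (0.0231) passed as well, as edgeR adjusted p. Those replicate numbers show no pairing beyond the library sets. Ctnnb1, Puf60 and Gsto1 passed in neither assay over all libraries.

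In 3 of these genes both library sets passed the test in footprints, in opposite directions. Gsto1 had footprints of 587.9 CPM in AT2 library 1, 2073 and 2006 CPM in AT2 libraries 2 and 3, and 1599.6, 1471, 1189 and 1217 CPM in the LUAD libraries. Its log2 change was thus 1.43 in the set with AT2 library 1 (edgeR adjusted p = 7.7e-05) and -0.76 in the other set (adjusted p = 0.00069). In RNA the same gene was at 0.94 and -0.58 in the 2 sets, with both past the test. Ctnnb1 footprints were at 0.51 (edgeR adjusted p = 0.0051) and -0.23 (adjusted p = 0.038), and those of Itgb1 at 0.47 (adjusted p = 0.0452) and -0.43 (adjusted p = 0.0084). Puf60 RNA differed in sign between the sets, at -0.09 (edgeR adjusted p = 0.297) and 0.22 (adjusted p = 0.114), with neither past the test. The fall of Itgb1 RNA held in both sets, at -0.76 and -1.05. Each set was fitted alone, after it was seen in the data, and a lone AT2 library in a set is assumed to vary as the other tissue does.

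Footprints per RNA, tested in edgeR as the tissue-by-assay interaction in the 14 count libraries, changed in 4 of 496 host genes (0.81%), beside 0.72% of all genes tested (0.282% higher and 0.438% lower). At an unadjusted p of 0.05 there were 73 such host genes (14.7%, beside 13.7% of other genes), and DESeq2 called 28 (5.65%, beside 5.29% of all genes). All 4 genes called by edgeR were lower in LUAD, and all 4 hold their ORF on an NMD transcript, as did 303 of the 496 tested host genes. The shared direction depended on the fit. Of the 28 called by DESeq2, 7 were higher in LUAD, and of 38 called with a library set term, 17 were higher. Tnfaip2 changed by -3.97 ± 0.79 (SE; edgeR adjusted p = 0.0395), with RNA at 0.74, 1.38 and 3.10 CPM in AT2 and 172.9, 186.4, 335.4 and 384.4 CPM in LUAD. Dtnb, a dystrobrevin gene, changed by -2.74 ± 0.51, Setd3, a histidine methyltransferase that acts on actin, by -2.0 ± 0.38, and Smdt1, a subunit of the mitochondrial calcium uniporter, by -1.76 ± 0.32. Smdt1 footprints were at 162.8, 186.9 and 196.3 CPM in AT2 and 30.4, 23.8, 34.5 and 39.3 CPM in LUAD, while its RNA was at 364.6 to 373.8 CPM and 163.6 to 294.3 CPM. Leaving out 1 library gave from 0 to 31 called host genes. None was called without AT2 footprint library 3, LUAD footprint library 2 or 3, AT2 RNA library 1 or 2, or LUAD RNA library 3 or 4.

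**Figure D5:**
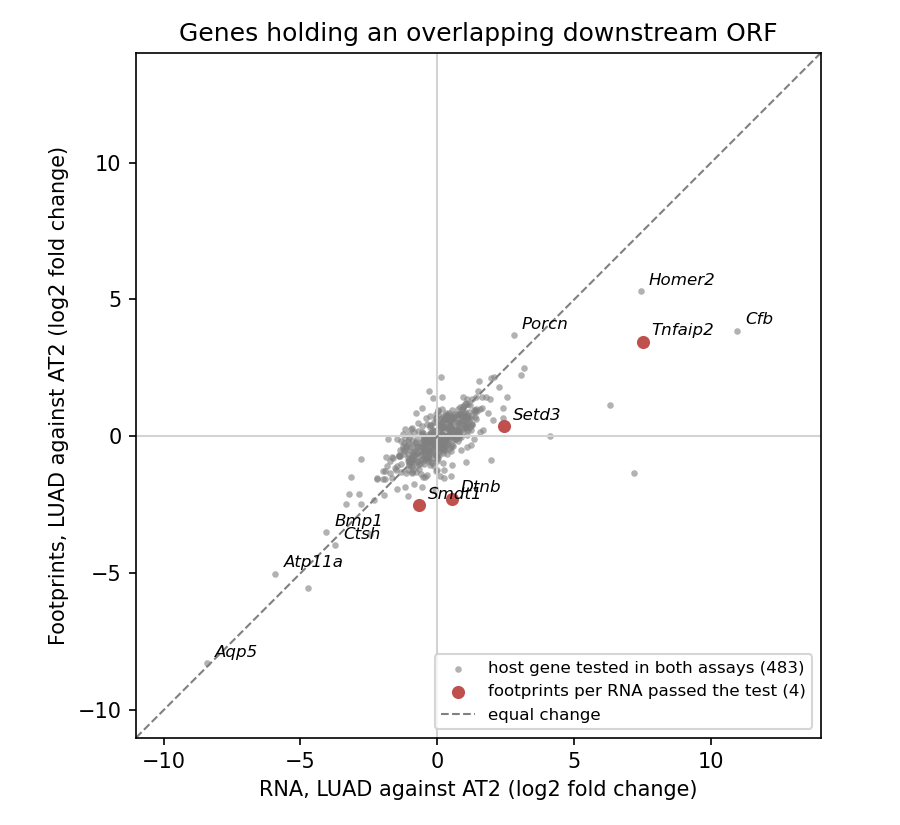
Log2 fold change of footprints (y axis) against that of RNA (x axis), LUAD against AT2, for the 483 host genes tested in both assays, 1 point per gene, with the 4 genes whose footprints per RNA passed the test in red and a dashed line of equal change. Most genes lie near 0, Aqp5 and Atp11a are far below 0 on both axes, and Cfb, at 0 counts in AT2 RNA, is placed by a fitted value that is no bound.

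Genes of termination, ribosome recycling and decay form a list of 32, from the release factor Etf1 to the UPF and SMG genes. Of 22 tested in footprints, 2 were higher in LUAD and 0 lower, beside 9.47% and 11.8% of all genes tested, with a median log2 change of 0.36, and the counts were the same at an unadjusted p of 0.05 and by DESeq2. Magohb, an exon junction core protein and the 1 host gene of the list, rose by 2.26 ± 0.45 (SE; edgeR adjusted p = 0.0107), from 16.9, 24.0 and 17.0 CPM in AT2 to 42.1, 67.0, 130.9 and 131.1 CPM in LUAD. Its 90-codon ORF was listed in LUAD 1 with 52 in-frame P-sites. Ruvbl1, an ATPase of the SMG1 assembly, rose by 1.12. In RNA 6 of 23 were higher and 0 lower in edgeR's test, beside 19.0% and 18.0% of all genes, with a median of 0.51 (10 and 0 at an unadjusted p of 0.05, 8 and 0 by DESeq2), and the largest were Magohb (3.04), Ruvbl1 (1.41) and Ruvbl2 (1.18). None of 22 changed in footprints per RNA by edgeR, where 2 were lower at an unadjusted p of 0.05 and 2 by DESeq2. Magohb and its paralogue Magoh encode nearly the same protein, so reads between them may be split with error.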

How the data were processed

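Members and gene lists were chosen with earlier results of these data known. ORF lists give, per the file headers, the counts of P-sites by reading frame, a deposited RPKM value (in-frame P-sites scaled to length and library) and the authors' p-value for frame, which is at most 0.05 in every row. The build is mm10 per the submitters' processing notes. Footprint and RNA tables hold estimated counts and TPM per transcript, which the authors made with kallisto per the submitters' processing notes. For the ORF caller and for RNA library preparation, which carries the same protocol text as footprints, the method was not given in the sources used here.

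Unique ORFs were pooled over the 5 lists. Peptides were compared as the longest identical run with any listed annotated ORF of the gene. No tests were run on ORF sequences, which are not printed here. Estimated counts were summed to 7266 genes through the transcripts that the ORF lists pair with genes, and the sums were rounded. Of 22871 such transcripts, 22509 were in the count tables, and these hold 65.0 to 70.0% of each library's counts.

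The gene model was edgeR 4.0.16 under R 4.3.3 (scaling by TMM, filterByExpr, robust quasi-likelihood, Benjamini-Hochberg adjusted p under 0.05), after tests on simulated counts. CPM uses TMM-scaled totals. DESeq2 1.42.0 was an alternative, beside size factors, no filter, all-transcript scaling, replicate blocks, library sets and leaving out each library. Library results used exact permutation tests in scipy 1.17.1.

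Named were ORFs in both tissues, in at least 3 libraries, with the 10 highest in-frame sums, the 3 longest and 3 shortest, up to 5 host genes per direction and assay with the largest changes, and up to 3 genes of the termination list per direction and assay, of which some items are not reported here. For RNA the same replicate number correlated between tissues at 0.21, 0.16 and 0.26, all over 0.1. Unlike numbers of the same library set correlated about as much. The values were 0.15 for AT2 1 with LUAD 2, 0.17 for AT2 2 with LUAD 1 and 0.23 for AT2 3 with LUAD 4. The RNA numbers thus show no pairing beyond the library sets, and the labels state none.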

Additional observations from a re-analysis of the deposited data

Results flagged for a closer look

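Among 40 groups of library values of named host genes, chance would set 1 library apart in about 1 of 20. LUAD footprint library 2 had 13.3 CPM for Atp11a, far from the 2.06 to 3.75 CPM of the other LUAD footprint libraries. LUAD RNA library 1 had 0.454 CPM for the same gene, far from the other LUAD RNA libraries at 2.88 to 3.23 CPM. Atp11a stood at 56.6 CPM or above in each AT2 footprint library.

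In 4 host genes the LUAD-against-AT2 change differed between footprints and RNA by the interaction test in edgeR. The difference, footprints minus RNA on the log2 scale, was -3.97 in Tnfaip2, -1.76 in Smdt1, -2.0 in Setd3 and -2.74 in Dtnb. Tnfaip2 rose in both assays, less in footprints (3.46) than in RNA (7.52). Setd3 rose in RNA by 2.44, with footprints at 0.37 (adjusted p = 0.431). Dtnb fell in footprints by 2.27, with RNA at 0.53 (adjusted p = 0.104). Smdt1 fell in both, by 2.51 in footprints and 0.66 in RNA.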

How the results depend on the processing

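The number of called host genes depended on the fit. In footprints it was 92, but 148 with DESeq2, 57 with the replicate block, 224 with a library set term, 266 and 233 in library sets A and B alone, and 51 to 132 without 1 library. In RNA it was 195, but 294 with a set term, 317 in set A alone, 286 in set B alone, 212 with the replicate block and 110 to 260 without 1 library. In footprints per RNA it was 4, but 28 with DESeq2, 38 with a set term, 5 with the replicate block and 0 to 31 without 1 library. The share of all genes called moved with it. In footprints it was 21.3%, with 30.6% by DESeq2, 13.7% with the block, 42.1% with a set term and 12.5% to 27.2% without 1 library, beside 18.9%, 30.3%, 11.7%, 45.9% and 10.5% to 26.7% of host genes. In RNA it was 37.0%, with 53.8% with a set term, 37.5% with the block and 23.3% to 47.9% without 1 library, beside 39.8%, 60.0%, 43.3% and 22.3% to 52.6% of host genes. In footprints per RNA it was 0.72%, with 5.29% by DESeq2, 7.31% with a set term, 1.54% with the block and 0.128% to 5.92% without 1 library. The set term and single sets were chosen after seeing the data. Footprint replicate numbers correlated between tissues at 0.36, -0.32 and 0.29, so they pair nothing.

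The density difference of -0.05 (LUAD minus AT2) turned to 0.092 for ORFs with p under 0.01, 0.0096 on protein-coding transcripts alone and ranged from -0.107 to 0.0065 when 1 AT2 library was left out. With the replicate block the ORF numbers differed by 125.5, the shares by -0.74 points and the densities by -0.03, with no test. Among host genes that had not passed the test, the log2 change turned sign in these settings. Without 1 library it ranged in footprints from -0.605 to 0.389 for Ankrd11, -0.348 to 0.00632 for Itgb1, -0.182 to 0.374 for Mdh2 and -0.583 to 0.0800 for Gsto1, and in RNA from -0.0044 to 0.399 for Ctnnb1 and -0.0095 to 0.107 for Puf60. With the block it was 0.0358 for Gsto1 footprints and -0.0018 for Puf60 RNA, and with all-transcript scaling 0.0207 for Itgb1 footprints. In set A alone it was 1.43 for Gsto1 and 0.47 for Itgb1 footprints and -0.0858 for Puf60 RNA, and in set B alone -0.23 for Ctnnb1 footprints and -0.58 for Gsto1 RNA. The cause was not tested.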
